A study of Mus musculus with 6 samples.

Results

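The genes described here encode the machinery that fuses secretory granules with the cell surface, and they were followed in bone marrow-derived basophils (BMBAs) given IL-3 or PBS. They were taken by symbol from the deposited gene table: the numbered VAMPs, syntaxins (Stx), syntaxin-binding proteins (Stxbp), synaptotagmins (Syt) and synaptotagmin-like proteins (Sytl), with Snap23, Snap25, Snap29, Snap47, Unc13d, Rab27a, Rab27b, Rab3a, Rab3d, Nsf and Napa. The rule used no expression value and found 61 of the 37043 symbols: 8 VAMPs, 15 syntaxins, 4 SNAP proteins, 6 Stxbp proteins, 16 synaptotagmins, 10 Sytl, Rab and Unc13d genes, and Nsf with Napa.

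BMBAs are basophils grown in culture from mouse bone marrow, and bulk RNA-seq was performed on 6 libraries of them. C57BL/6J WT marrow was kept for 7 days at 0.3 ng/mL of a cytokine, which the methods of the study give as IL-3, and CD49b+ cells were then enriched with beads. The cultures received PBS or 10 ng/mL IL-3 for 6 h, with 3 libraries in each group. IL-3 thus acted on cells that had already been grown in it, and no source used here says whether the PBS cultures still held IL-3 during the stimulation. According to the legend in the study the libraries came from separate cultures, but whether each culture came from its own mouse is not given, so the p-values measure the spread between these libraries.

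Library totals ranged from 10537540 to 13999287 counts. All 8 basophil markers were expressed in every library, and their summed level, in CPM (read counts divided by the TMM-scaled library size), was 10250 to 11440 in PBS and 15300 to 15490 in IL-3, with 6 called higher, Fcer1a called lower (log2 fold change -0.50) and Prss34 not called (0.01). Transcripts used as markers of other cells were also present and moved with the treatment. The summed level of 8 monocyte and macrophage markers was 11520 to 12430 CPM in PBS and 6035 to 6660 CPM in IL-3 (1 called higher and 6 lower), and that of 6 megakaryocyte and platelet markers was 1096 to 1773 and 600.5 to 1128 CPM (4 called lower). The 7 mast cell markers summed to 840.5 to 944.7 CPM in PBS and 1437 to 1571 CPM in IL-3. The 9 neutrophil markers summed to 79.1 to 114.2 and 137.0 to 201.8 CPM. Most of this difference was Retnlg (mean 11.3 and 69.2 CPM). Retnlg and the rare Ly6g (0 to 0.351 CPM in PBS and 1.71 to 2.92 CPM in IL-3) were called higher, while Mpo was called lower (log2 fold change -0.63) and S100a8, S100a9 and Ngp were not called. The 7 NK and T cell markers summed to 149.8 to 167.2 and 1322 to 1606 CPM, nearly all of it Gzmb, which basophils may also express, while Gzma was at 0 in all libraries. In bulk RNA, fewer cells of a type and less RNA per cell cannot be told apart, and the part of these other cells in the results on exocytosis genes was not tested.

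Membrane fusion in secretion is driven by SNARE proteins. A VAMP on the granule pairs with a syntaxin and a SNAP protein on the target membrane, and the zippering of their helices draws the membranes together. Stxbp (Munc18) proteins guide syntaxins, Munc13 proteins such as Unc13d prime granules, Rab27 and Rab3 GTPases with their Sytl effectors tether them, synaptotagmins can sense calcium, and Nsf with Napa takes spent SNARE complexes apart. In mast cells, the best studied relatives of basophils, Snap23 with Stx4 or Stx3 and Vamp8 is known as a fusion complex of granule release, and mutations of Unc13d, Stx11, Stxbp2 or Rab27a impair granule release by cytotoxic lymphocytes.

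The DNA just before the start of 3 members is shown because these were the 3 genes with the largest called increases under IL-3, and IL-3 acts in large part through STAT5, whose binding motif is TTCNNNGAA. The windows are the 250 bases before the RefSeq start (GRCm38.p6), written from 5' to 3' on the strand of the gene: chr2:120567421-120567670, plus strand, for Snap23, chr19:11819404-11819653, minus strand, for Stx3, and chr17:6658809-6659058, plus strand, for Sytl3. Capitals mark the match to a CCAAT box (CCAAT, here read on the other strand) in Snap23 and to TTCNNNGAA in Sytl3. The Stx3 window held none of the motifs searched.
Snap23: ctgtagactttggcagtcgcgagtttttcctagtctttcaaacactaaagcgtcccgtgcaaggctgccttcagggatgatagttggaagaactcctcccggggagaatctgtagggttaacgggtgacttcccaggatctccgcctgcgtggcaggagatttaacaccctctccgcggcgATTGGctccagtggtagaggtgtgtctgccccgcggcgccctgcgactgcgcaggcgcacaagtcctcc
Stx3: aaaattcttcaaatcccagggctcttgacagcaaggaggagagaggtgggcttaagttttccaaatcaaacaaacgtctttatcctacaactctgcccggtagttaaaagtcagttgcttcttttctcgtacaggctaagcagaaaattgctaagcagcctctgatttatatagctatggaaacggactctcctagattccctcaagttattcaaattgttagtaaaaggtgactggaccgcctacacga
Sytl3: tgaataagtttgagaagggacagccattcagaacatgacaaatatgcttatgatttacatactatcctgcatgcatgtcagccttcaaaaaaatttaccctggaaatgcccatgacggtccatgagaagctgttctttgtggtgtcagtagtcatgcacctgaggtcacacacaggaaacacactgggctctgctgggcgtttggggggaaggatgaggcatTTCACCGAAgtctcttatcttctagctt

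Across the promoter table, 46 of the 61 members were found, with 59 windows. The letters TTCNNNGAA stood in 4 of these windows (6.78%), those of Stx17, Sytl3, Sytl4 and Vamp8, and in 7.02% of all 32851 windows. CCAAT stood in 30.5% of the member windows and 33.8% of all windows, the AP-1 motif TGANTCA in 5.08% and 6.75%, and the E-box CACGTG in 15.3% and 6.02%. Both strands were searched, matches of different motifs were counted separately, and a match is a description of the letters. Of the 4 members with TTCNNNGAA, Sytl3 was called higher, Stx17 was called lower, and Sytl4 and Vamp8 were not called.

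Of the 61 members, 44 passed the filter on low counts and were tested. IL-3 raised 7 (Snap23, Stx3, Sytl3, Stx7, Nsf, Stx11 and Snap29) and lowered 8 (Sytl2, Stx2, Sytl1, Vamp7, Vamp2, Stx17, Vamp4 and Stx4a), as judged by the edgeR quasi-likelihood test at an adjusted p below 0.05, and 29 were not called. The 15 called members were 34.1% of those tested, where 38.2% of all 16675 genes tested were called (18.0% higher and 20.2% lower). The median log2 fold change of the 44 tested members was -0.08 beside 0.00 (-0.0033) over all genes tested. The exocytosis genes as a whole were thus called at a share near that of all genes, and the results below concern single members. The split depended on scaling: with library totals in place of TMM, 5 members were called higher and 20 lower, beside 10.2% and 30.2% of all genes tested, and that scaling shifted the median of all genes by -0.163 on the log2 scale. Tested against a fold of 1.5 (glmTreat), 2 members, Snap23 and Stx3, were called higher and 0 lower (0 also at an unadjusted p below 0.05), beside 4.25% and 5.30% of all genes.

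**Figure D1:**
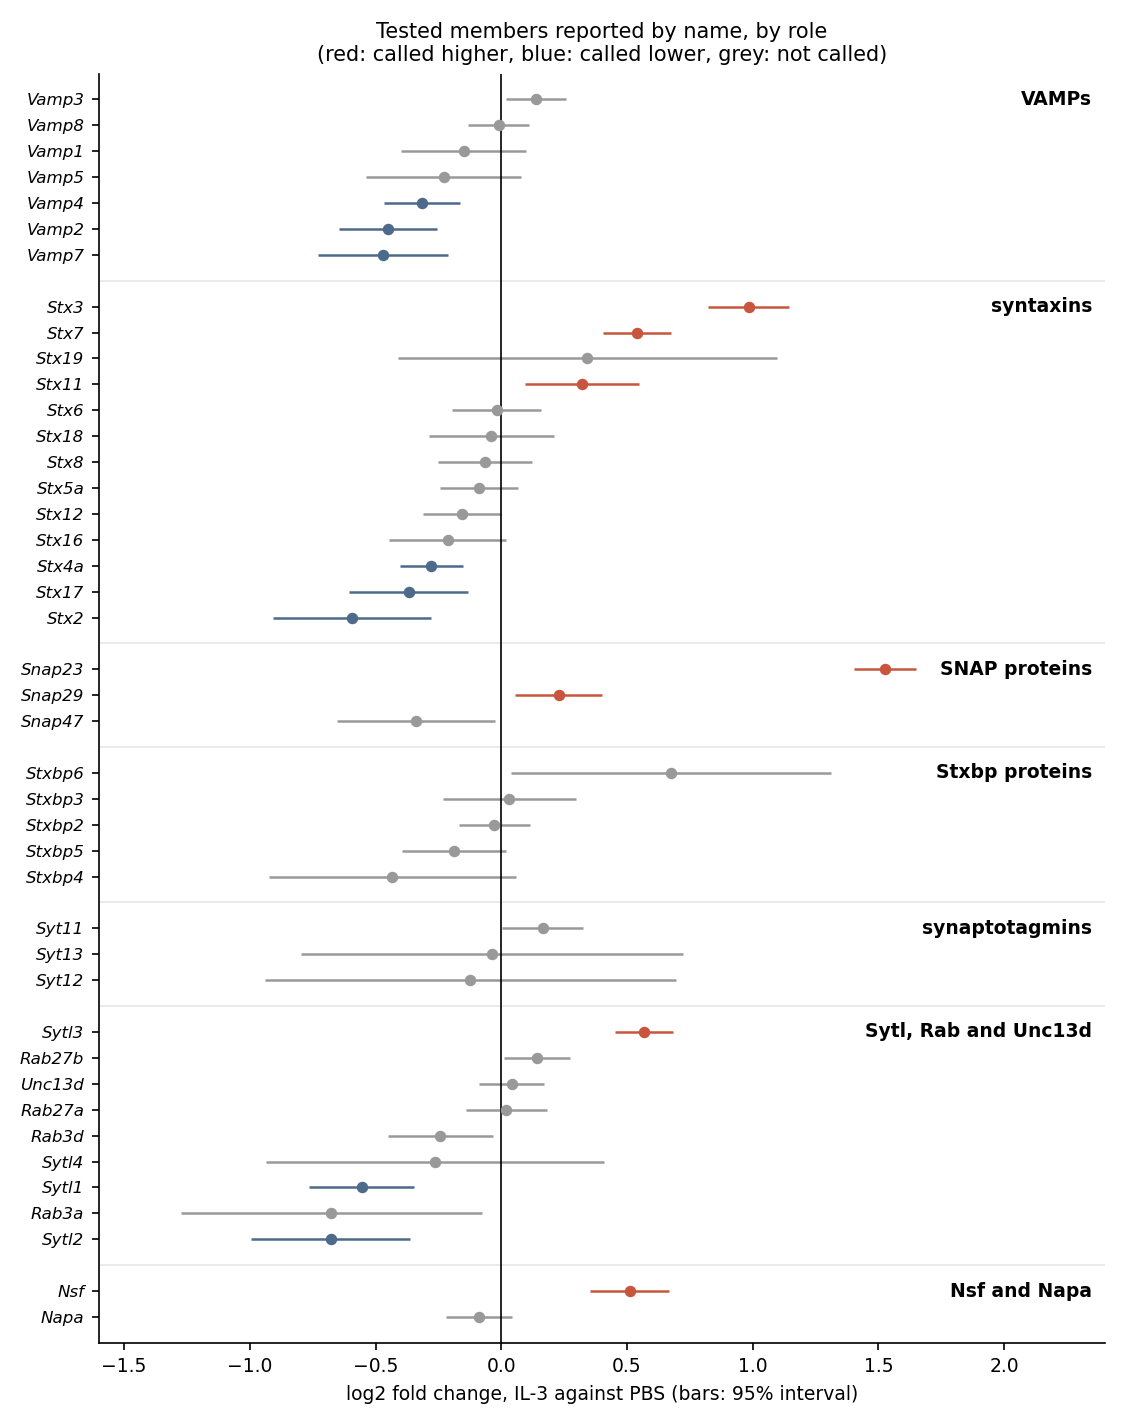
Log2 fold change of the tested members reported by name (IL-3 against PBS, x axis), grouped by role, with 95% intervals as bars. Snap23 lies farthest to the right at 1.53, followed by Stx3 at 0.98, and the 8 members called lower lie between -0.68 and -0.28.

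Among the SNAP proteins, which give the SNARE complex a pair of helices, Snap23 rose 2.88-fold. Snap23 is the form used outside neurons, and lies on chromosome 2 at 120567671 to 120601255 (GRCm38, plus strand). Expression stood at 120.6, 126.5 and 112.5 CPM in PBS replicates 1, 2 and 3 and at 337.7, 340.9 and 357.6 CPM in IL-3 replicates 1, 2 and 3, the order in which values are given throughout. The groups were far apart: the lowest IL-3 library lay well above the highest PBS library. The log2 fold change was 1.53 (SE 0.058, n = 3 per group, edgeR adjusted p 6.395e-12), and it ranged from 1.36 to 1.57 over 14 other settings, all of which called it. The raw counts behind it were 1277 to 1474 per PBS library and 3421 to 4611 per IL-3 library.

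Snap29, a widely expressed SNAP protein of endosomal and autophagic membranes, rose by much less. It had 74.0, 82.4 and 69.3 CPM in PBS and 81.9, 83.8 and 98.4 CPM in IL-3, with overlapping groups (log2 fold change 0.23, SE 0.082, edgeR adjusted p 0.0372). The call was lost without PBS replicate 1, PBS replicate 3 or IL-3 replicate 3 (adjusted p 0.0947, 0.147 and 0.211), with a replicate block (0.0607), with iterated TMM (0.0607) and with library totals (0.557), in a range of 0.00636 to 0.557 over all settings. Snap47 had a log2 fold change of -0.34 and was not called (adjusted p 0.084), and Snap25, the neuronal form, stayed between 0.082 and 0.395 CPM and was not tested. Snap23 made up 51.7%, 50.8% and 51.5% of the SNAP transcripts per length in the PBS libraries and 73.7%, 74.4% and 72.0% in the IL-3 libraries, a share chosen for description after the values were seen. The increase of this share was 22.0 percentage points with the union of exons as length, 19.7 with the longest transcript and 12.7 with the median transcript length.

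**Figure D2:**
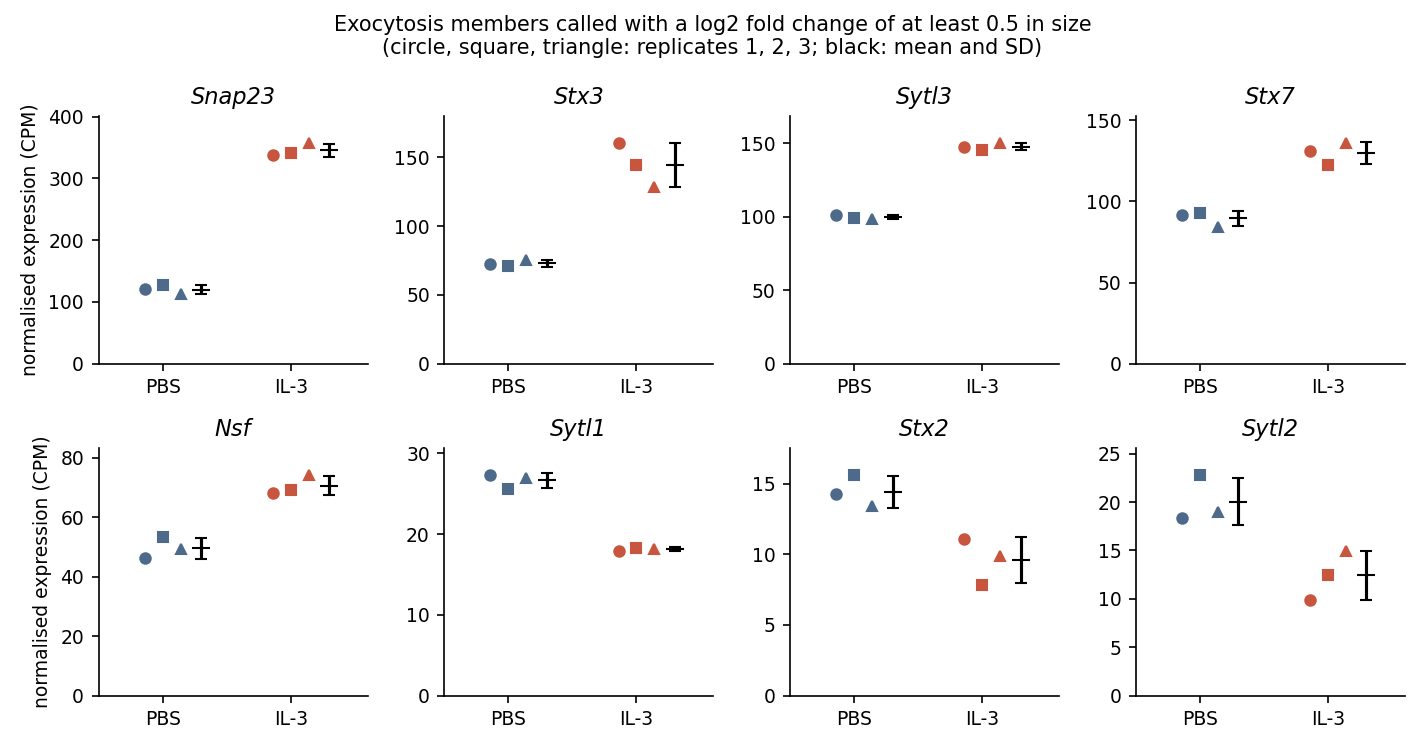
CPM per library (y axis) of the 8 members called with a log2 fold change of at least 0.5 in size, with circle, square and triangle for replicates 1, 2 and 3 and the mean and SD in black. In each of the 8 panels the 3 IL-3 libraries lie beyond the 3 PBS libraries, above them in the first 5 and below them in Sytl1, Stx2 and Sytl2. The choice of called members favours such separation. Of all 44 tested members, 21 (47.7%) had groups that did not overlap, beside 48.2% of all genes tested.

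Among the syntaxins, the SNAREs of target membranes, 14 of 15 were tested, with 3 called higher and 3 lower. Over all genes tested, 18.0% were called higher and 20.2% lower. Stx3, a syntaxin of the plasma membrane and granules (chromosome 19, 11775118 to 11819403, minus strand), rose 1.98-fold. Its PBS libraries had 72.4, 70.9 and 75.7 CPM and its IL-3 libraries 160.6, 144.7 and 128.4 CPM. The groups did not overlap, and the IL-3 libraries were spread more widely (SD 16.1 CPM) than the PBS libraries (SD 2.43 CPM). The log2 fold change was 0.98 (SE 0.076, n = 3 per group, edgeR adjusted p 3.689e-08) and ranged from 0.82 to 1.06 over 14 other settings, all of which called it.

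Stx4a, the gene of syntaxin 4 of the plasma membrane, moved the other way. It had 104.1, 98.9 and 105.7 CPM in PBS and 87.0, 84.5 and 83.2 CPM in IL-3, with every IL-3 library below every PBS library. The log2 fold change was -0.28 (SE 0.059, n = 3 per group, edgeR adjusted p 0.00144). Stx2, another plasma membrane syntaxin, had 14.2, 15.6 and 13.4 CPM in PBS and 11.1, 7.83 and 9.85 CPM in IL-3. Its groups did not overlap, and its log2 fold change was -0.59 (SE 0.148, n = 3 per group, edgeR adjusted p 0.0046).

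Stx3 made up 18.1%, 17.7% and 18.9% of the summed transcripts of Stx2, Stx3, Stx4a and Stx11 per length in PBS and 35.0%, 33.9% and 29.9% in IL-3. This share was also chosen after the values were seen. It increased by 14.7 percentage points with exon unions, 16.9 with the longest transcript and 19.8 with the median transcript length.

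Stx7, a syntaxin of late endosomes and lysosomes, had 91.5, 92.9 and 84.3 CPM in PBS and 131.4, 122.8 and 136.2 CPM in IL-3. Each IL-3 value exceeded each PBS value, with a log2 fold change of 0.54 (SE 0.063, edgeR adjusted p 5.101e-06). Stx8, which joins it in late endosomal SNARE complexes, was not called (log2 fold change -0.06, SE 0.087, edgeR adjusted p 0.606).

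Stx11, which lacks a transmembrane anchor and serves in cytotoxic granule release, had 43.8, 52.5 and 39.5 CPM in PBS and 54.9, 50.1 and 64.2 CPM in IL-3. The groups overlapped, with IL-3 replicate 2 below PBS replicate 2. The log2 fold change was 0.32 (SE 0.107, edgeR adjusted p 0.027). The call was lost without PBS replicate 1, PBS replicate 3 or IL-3 replicate 3 (adjusted p 0.0798, 0.123 and 0.151), with a replicate block (0.0543) and with library totals (0.258), in a range of 0.000805 to 0.258 over all settings.

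Stx17, the syntaxin of autophagosomes, had 31.2, 29.9 and 23.9 CPM in PBS and 21.4, 21.3 and 23.0 CPM in IL-3. The groups did not overlap but PBS replicate 3 lay close to the IL-3 libraries, and the log2 fold change was -0.37 (SE 0.112, edgeR adjusted p 0.0161). The call was lost without PBS replicate 1 (adjusted p 0.0778), PBS replicate 2 (0.059) or IL-3 replicate 2 (0.0559), in a range of 0.00102 to 0.0778 over all settings. The 8 syntaxins that were tested and not called (Stx6, Stx8, Stx12 and Stx16 among them) had log2 fold changes from -0.21 to 0.34. The neuronal Stx1a was at 0 to 0.351 CPM and was not tested.

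Of the VAMPs, the SNAREs carried by vesicles and granules, 0 of the 7 tested were called higher by edgeR and 3 were called lower. The shares over all genes tested were 18.0% higher and 20.2% lower. DESeq2 and limma-voom also called 0 higher, and Vamp3 was the 1 with an unadjusted p below 0.05 in that direction. Vamp2 (chromosome 11, 69088490 to 69092384, plus strand), a VAMP of regulated secretion, had 177.2, 189.0 and 153.5 CPM in PBS and 130.0, 142.2 and 108.4 CPM in IL-3. Every IL-3 library lay below every PBS library, and replicate 3 was the lowest in each group. The log2 fold change was -0.45 (SE 0.091, n = 3 per group, edgeR adjusted p 0.000965).

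Vamp7, which serves lysosomes and secretory lysosomes, had 20.8, 22.5 and 22.6 CPM in PBS and 15.5, 13.8 and 18.2 CPM in IL-3. The groups did not overlap (log2 fold change -0.47, SE 0.121, edgeR adjusted p 0.00614). Vamp7 is placed on an unplaced scaffold of GRCm38, GL456233.1, from 10738 to 39148. Vamp4, a VAMP of the trans-Golgi network, had 64.0, 62.0 and 67.8 CPM in PBS and 53.8, 49.1 and 52.7 CPM in IL-3, again with no overlap (log2 fold change -0.32, SE 0.071, edgeR adjusted p 0.00217).

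Vamp8, the VAMP best known from granule release in mast cells and platelets, was not called. It had 162.7, 175.1 and 173.4 CPM in PBS and 174.8, 162.3 and 170.2 CPM in IL-3, and the groups overlapped. Its log2 fold change was -0.01 (95% interval -0.13 to 0.11, edgeR adjusted p 0.907). With library totals Vamp8 was called lower (log2 fold change -0.17, adjusted p 0.0348), so the result depends on the scaling. Vamp3, of recycling endosomes, had 88.4, 89.1 and 88.4 CPM in PBS and 96.1, 98.1 and 98.4 CPM in IL-3. Each IL-3 library was above each PBS library, but the gene was not called (log2 fold change 0.14, 95% interval 0.02 to 0.26, edgeR adjusted p 0.0676), and with library totals the value was -0.02. Vamp1 and Vamp5 were not called, and Vamp9 reached at most 0.175 CPM and was not tested.

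Among the factors that tether and prime granules, 3 Sytl genes were called. Sytl3 (chromosome 17, 6659093 to 6738044, plus strand), a Rab27 effector, had 100.9, 99.3 and 98.5 CPM in PBS and 147.0, 145.4 and 150.2 CPM in IL-3. The groups lay far apart with little spread in either, and the log2 fold change was 0.57 (SE 0.055, n = 3 per group, edgeR adjusted p 5.872e-07). Of the 50-base stretches of its annotated transcripts, 21.1% were also found under another symbol, most of all Gm29719. The split of reads between Sytl3 and Gm29719 is thus uncertain. Gm29719 itself had 22.2 to 27.9 CPM in PBS and 21.9 to 24.4 CPM in IL-3 (log2 fold change -0.12, SE 0.109), and the means of Sytl3 were 99.6 and 147.5 CPM.

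Sytl2, another Rab27 effector, which can bind the plasma membrane, had 18.3, 22.8 and 18.9 CPM in PBS and 9.87, 12.5 and 14.9 CPM in IL-3. Its groups did not overlap (log2 fold change -0.68, SE 0.148, edgeR adjusted p 0.00183). Sytl1 had 27.3, 25.6 and 27.0 CPM in PBS and 17.9, 18.3 and 18.2 CPM in IL-3, also with no overlap (log2 fold change -0.56, SE 0.099, edgeR adjusted p 0.000324). Of 3 Sytl genes called, 1 thus rose and 2 fell, where 18.0% of all genes tested were called higher and 20.2% lower. Sytl4 was not called, and Sytl5 had no count in any library.

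Of the Rab GTPases and Unc13d, 0 were called by edgeR, DESeq2 or limma-voom, and 3 (Rab27b, Rab3a and Rab3d) had an unadjusted p below 0.05. By edgeR, 38.2% of all genes tested were called. Rab27a had 66.4, 65.8 and 71.8 CPM in PBS and 67.6, 63.0 and 75.9 CPM in IL-3, with overlapping groups (log2 fold change 0.02, 95% interval -0.14 to 0.18, edgeR adjusted p 0.868). Rab27b had 78.4, 75.8 and 73.3 CPM in PBS and 85.0, 81.0 and 85.2 CPM in IL-3, and although the groups did not overlap it was not called (log2 fold change 0.14, 95% interval 0.01 to 0.27, edgeR adjusted p 0.0804). Unc13d, the Munc13-4 protein of granule priming, had 94.98, 95.39 and 91.70 CPM in PBS and 90.9, 98.9 and 100.1 CPM in IL-3 (log2 fold change 0.04, 95% interval -0.09 to 0.17, edgeR adjusted p 0.646). With library totals the values of Rab27a, Rab27b and Unc13d were -0.14, -0.02 and -0.12, so their direction is not given.

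Rab3d, a granule Rab of secretory cells, had 43.4, 34.4 and 37.4 CPM in PBS and 34.3, 30.2 and 33.0 CPM in IL-3. Every IL-3 library was below every PBS library by a small margin (log2 fold change -0.24, SE 0.098, edgeR adjusted p 0.0629). It passed the threshold without PBS replicate 2 (adjusted p 0.027), with a replicate block (0.0497), with iterated TMM (0.0425) and with library totals (0.00365), in a range of 0.00365 to 0.299 over all settings. Rab3a was rare, with 2.10 to 2.94 CPM in PBS and 1.38 to 1.83 CPM in IL-3 (log2 fold change -0.68, SE 0.281, edgeR adjusted p 0.0711). The median over the 9 tested Sytl, Rab and Unc13d genes was -0.24, and leaving out PBS replicate 1 gave -0.016 and leaving out IL-3 replicate 1 gave -0.026.

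Of the 6 Stxbp proteins, 0 were called by edgeR, where 38.2% of all genes tested were called. Likewise 0 were called by DESeq2 and 0 by limma-voom, while 1, Stxbp6, had an unadjusted p below 0.05. Stxbp2 (Munc18-2), the partner of Stx11 and Stx3 in granule release, had 99.3, 96.9 and 112.1 CPM in PBS and 100.7, 104.5 and 97.3 CPM in IL-3. The groups overlapped, and the log2 fold change was -0.03 (95% interval -0.17 to 0.11, edgeR adjusted p 0.789). With library totals Stxbp2 was called lower (-0.19, adjusted p 0.0483), and without PBS replicate 3 its value was 0.039. Stxbp3 shared 9.27% of its 50-base stretches with other symbols, most of all its pseudogene Stxbp3-ps, and the log2 fold change of Stxbp3 was 0.03. Stxbp6, at 1.23 to 1.39 CPM in PBS and 1.68 to 2.58 CPM in IL-3, had the highest value of the family at 0.67 and was not called (edgeR adjusted p 0.0904).

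Synaptotagmins were scarce. Of 16 genes, 13 had too few counts to be tested and 1 of these, Syt9, had no count at all, which at these depths allows up to 0.233 to 0.296 CPM per library. No synaptotagmin that was left untested exceeded 0.90 CPM in any library, Syt1 and Syt2, the fast calcium sensors of synapses, included. Syt11, a synaptotagmin that does not bind calcium, was the exception, with 65.3, 73.0 and 76.4 CPM in PBS and 75.9, 77.3 and 87.0 CPM in IL-3 (log2 fold change 0.16, SE 0.076, edgeR adjusted p 0.102). Syt12 and Syt13 were tested and not called, so 0 synaptotagmins were called by edgeR, DESeq2 or limma-voom. By edgeR, 38.2% of all genes tested were called. Syt11 was the 1 synaptotagmin with an unadjusted p below 0.05.

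The genes that take SNARE complexes apart differed from each other. Nsf, the ATPase of this step, had 46.1, 53.2 and 49.3 CPM in PBS and 68.2, 69.2 and 74.2 CPM in IL-3. All 3 IL-3 libraries were higher (log2 fold change 0.51, SE 0.074, n = 3 per group, edgeR adjusted p 4.396e-05). Napa, the adaptor that brings it to the complex, had 114.0, 111.2 and 118.0 CPM in PBS and 112.0, 110.6 and 100.6 CPM in IL-3 and was not called (log2 fold change -0.09, SE 0.061, edgeR adjusted p 0.293).

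The order of members within a group was compared per length, as CPM per kilobase of exon (mean ± SD, n = 3). In PBS, the highest were Vamp8 (73.7 ± 2.91), Vamp2 (45.5 ± 4.75), Stx4a (43.5 ± 1.504), Vamp3 (30.7 ± 0.138), Napa (30.2 ± 0.903) and Snap23 (27.9 ± 1.64). Vamp2 and Stx4a did not differ beyond their spread there, nor did Vamp3 and Napa. In IL-3, Snap23 came first at 80.5 ± 2.49, followed by Vamp8 at 73.2 ± 2.74 and Stx4a at 35.9 ± 0.807. Stx3 was 17th in PBS (12.8 ± 0.425) and 10th in IL-3 (25.3 ± 2.82). The order depended on the length used. With the longest transcript Vamp8 was again first in PBS (82.1 ± 3.24), but with the median transcript length it was 7th there (117.7 ± 4.64), behind Napa (217.9 ± 6.51), Vamp2 (188.7 ± 19.7) and Snap23 (151.5 ± 8.89) among others. Snap23 was first in IL-3 with all 3 lengths. Of the 10 members with the highest mean over all libraries, 9 were among the first 10 with either other length.

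**Figure D3:**
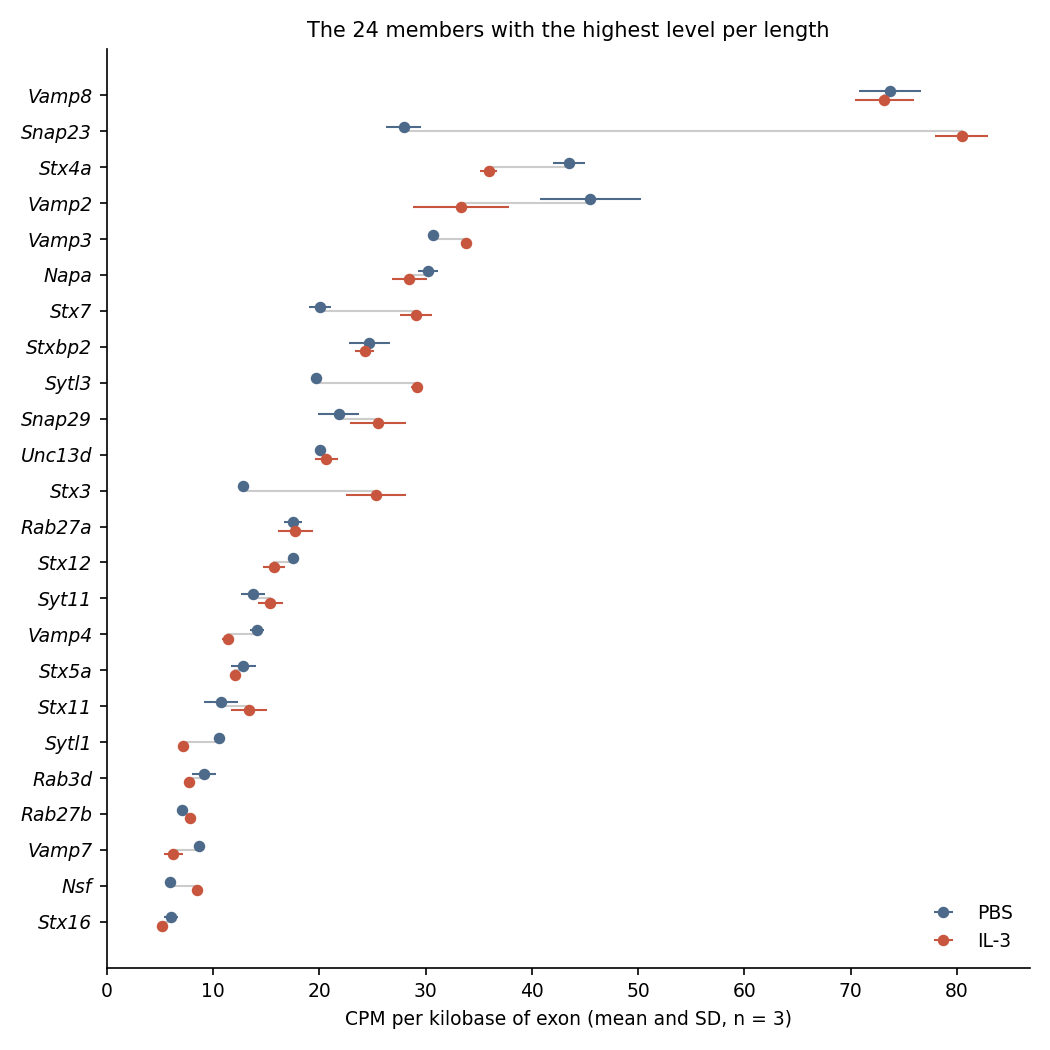
Mean CPM per kilobase of exon with SD (x axis, n = 3) in PBS and IL-3 for the 24 members with the highest level over all libraries. Snap23 moves from 27.9 to 80.5, past Vamp8 at 73.2, while Vamp8 itself differs by less than its spread. With the median transcript length as divisor Snap23 was above Vamp8 in PBS already.

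Ratios within a library do not depend on how libraries are scaled, and 7 pairs of related members were compared in this way. The log2 ratio of Snap23 to Snap29 was 0.67 ± 0.048 in PBS and 1.98 ± 0.1 in IL-3 (SD, n = 3 each), and that of Stx3 to Stx4a was -0.50 ± 0.025 and 0.76 ± 0.130. These ratios compare counts and not levels per length. Per kilobase of exon Stx3 lay below Stx4a in all 6 libraries, also in IL-3 (28.1, 25.3 and 22.5 against 36.8, 35.8 and 35.2 CPM per kilobase), and above it in the IL-3 libraries with the median transcript length, so their order was not settled. The ratio of Vamp2 to Vamp3 fell by 0.59 and that of Vamp7 to Vamp8 by 0.47, with groups that did not overlap. Rab3a to Rab3d differed by -0.43 between means with groups that barely parted, IL-3 replicate 2 lying at -4.010 and PBS replicate 2 at -4.002, and Rab3a had 14 to 36 counts per library. For each of these 5 pairs the exact two-sided permutation test gave p = 0.10, the smallest that 3 against 3 libraries allow (0.14 after adjustment over the 7 pairs), so this test cannot pass 0.05. Of the scaled levels of single genes, 48.2% of all tested had groups that did not overlap. No such share was computed for ratios of 2 genes. The groups overlapped for Stxbp2 to Stxbp3 and Rab27a to Rab27b (differences -0.08 and -0.13, exact permutation p = 0.9 and 0.3, adjusted 0.9 and 0.35).

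**Figure D4:**
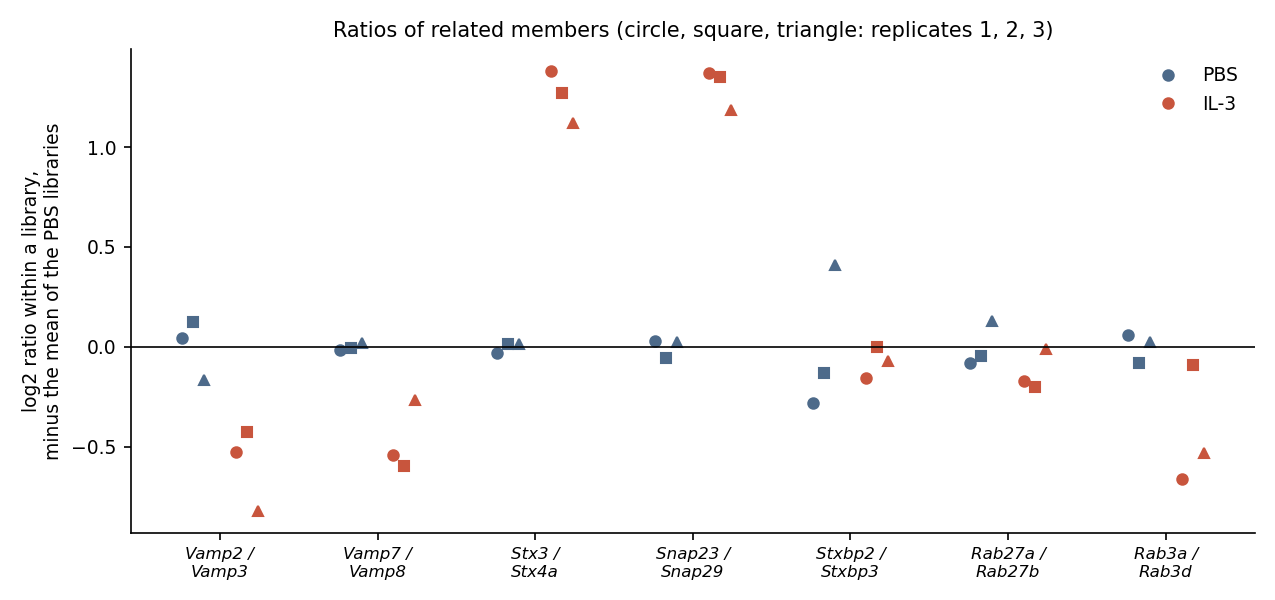
Log2 ratio of 2 related members within each library, after subtracting the mean of the PBS libraries (y axis), for 7 pairs, with circle, square and triangle for replicates 1, 2 and 3. The IL-3 libraries lie over 1 above the PBS mean for Stx3 to Stx4a and Snap23 to Snap29 and below all PBS libraries for Vamp2 to Vamp3, Vamp7 to Vamp8 and Rab3a to Rab3d.

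Other genes of the same pathway were read from a list of 54 that the rule does not take, of which 42 were tested, 17 called higher and 2 lower (45.2% called, beside 38.2% of all genes). With library totals these counts were 8 and 7, and without IL-3 replicate 1 they were 11 and 3. The SNAREs and SM proteins outside the rule, listed with Napb and Napg, relatives of the adaptor Napa, gave 8 higher and 0 lower of 17 tested (edgeR). Over all genes tested, 18.0% were called higher and 20.2% lower. Most of these 17 serve traffic between the endoplasmic reticulum, Golgi and endosomes. DESeq2 and limma-voom also called 0 lower, and 3 (Bet1, Bnip1 and Napb) had an unadjusted p below 0.05 in that direction. The 8 called higher were Gosr2 (0.50), Bet1l (0.40), Gosr1 (0.31), Sec22b (0.31), Ykt6 (0.29), Scfd1 (0.27), Use1 (0.21) and Vti1b (0.19) on the log2 scale. Of 8 exocyst subunits, which tether vesicles to the plasma membrane, Exoc5 and Exoc3 rose (0.42 and 0.37) and 6 were not called.

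Among priming, calcium and Rab factors, 7 were called higher and 2 lower of 17 tested, beside 18.0% and 20.2% of all genes tested. Rab3c, a relative of Rab3a and Rab3d, had 9.33, 8.24 and 11.3 CPM in PBS and 23.1, 26.0 and 29.6 CPM in IL-3 (log2 fold change 1.45, SE 0.139, edgeR adjusted p 5.15e-07). Cplx2, a complexin that binds assembled SNAREs, had 9.98, 9.12 and 9.43 CPM in PBS and 20.04, 20.32 and 20.94 CPM in IL-3 (log2 fold change 1.10, SE 0.119, edgeR adjusted p 2.018e-06). Neither gene had overlapping groups, and both were called in all 14 other settings. Exoc5 had 67.9, 68.6 and 66.9 CPM in PBS and 96.2, 87.9 and 88.6 CPM in IL-3 (edgeR adjusted p 5.952e-05).

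Myo5a, the myosin that carries Rab27-bound organelles along actin, fell 2.10-fold. It had 177.2, 164.1 and 166.2 CPM in PBS and 83.2, 75.5 and 82.8 CPM in IL-3 (log2 fold change -1.07, SE 0.062, edgeR adjusted p 1.099e-09). Mlph, an adaptor between Rab27 and this myosin, was called higher at a low level (log2 fold change 0.61, SE 0.220, edgeR adjusted p 0.0385). Doc2g was at 0.916 to 2.28 CPM over the 6 libraries (log2 fold change -0.85, SE 0.319, edgeR adjusted p 0.0467). Its call was lost without any of PBS replicate 2, PBS replicate 3 and IL-3 replicates 1, 2 and 3, with a replicate block (adjusted p 0.0732), with no filter (0.0975), by the DESeq2 Wald test (0.179) and by limma-voom (0.0558), which makes 9 of 14 settings, and over all settings the adjusted p ranged from 0.0186 to 0.179.

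**Figure D5:**
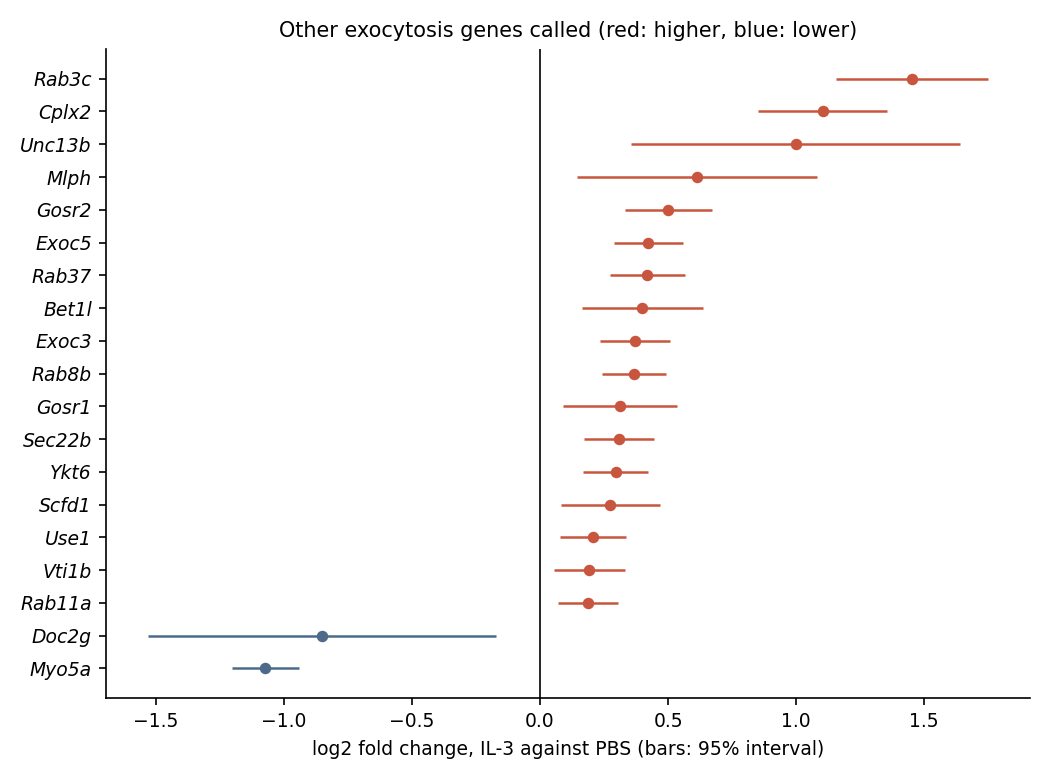
Log2 fold change with 95% interval (x axis) of the 19 other exocytosis genes that were called. Rab3c (1.45) and Cplx2 (1.10) lie farthest to the right and Myo5a (-1.07) farthest to the left.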

How the data were processed

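The authors deposited 1 table of raw read counts per gene symbol for the 6 libraries. Per the study's methods, mRNA was isolated on oligo-dT beads and amplified as whole-transcriptome cDNA. Reads were trimmed with cutadapt (3.4 in the submitters' processing notes), mapped with Bowtie2 and counted per gene. No molecular identifiers are described, so PCR copies count as separate reads. The notes name GRCm39 and the methods GRCm38, and the table holds symbols only. Coordinates and lengths here are from GENCODE M21 (GRCm38), which holds 96.22% of the symbols and all 61 members. The labels name a column kit for the RNA and the methods direct lysis.

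Counts were tested with edgeR 4.0.16 in R 4.3.3 (filterByExpr, TMM, quasi-likelihood F test, IL-3 against PBS, two-sided, Benjamini-Hochberg over all 16675 genes tested, called at an adjusted p below 0.05). SEs were derived from F, and CPM were scaled by TMM. The 95% intervals came from SE and the total degrees of freedom (prior plus residual) of the quasi-likelihood F test. A count of 0 allows up to 3 counts, for counting error only. Ratios used counts plus 0.5 and an exact permutation test. Shared sequence is the percentage of 50-base stretches of a gene's transcripts found under another symbol. Promoters are from RefSeq.

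Members, lists and tests were chosen with earlier results of these data known. Named members are those known from granule release, those called with a log2 fold change of at least 0.5 in size, and the 3 other exocytosis genes called higher and 3 lower with the smallest adjusted p (only 2 were called lower). Further genes, including the remaining called members, were named after their values were seen. Some genes that the rule names, and 1 planned ratio, are not reported here. On simulated counts, 79.5% of 195 genes changed 2-fold were called, 100% with the right sign, and 0.055% of unchanged genes. Only these genes of 16422 tested were changed, up or down at random, where 38.2% of genes were called in the data. The simulation therefore does not test the scaling.

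Alternatives were DESeq2 1.42.0 size factors and Wald test, library totals, iterated TMM, no filter, 1 CPM in 3 libraries, limma-voom (limma 3.58.1), a replicate block, leaving out each library, adjusted p thresholds of 0.01 and 0.1, glmTreat with a fold of 1.5, and other pseudocounts and lengths. No 2 libraries of a group agreed within sampling noise (chi-square per degree of freedom at least 2.94).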

Additional observations from a re-analysis of the deposited data

How the results depend on the processing

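Snap23, Stx3, Sytl3, Stx7, Nsf, Sytl2, Stx2, Sytl1, Vamp7, Vamp2, Vamp4 and Stx4a kept their direction and their call in all 14 settings that scaled, filtered, tested or left out libraries differently. Against a fold of 1.5, 2 members (Snap23 and Stx3) were called higher and 0 lower (glmTreat, 0 also at an unadjusted p below 0.05), with 2 and 1 of the other exocytosis genes, where 4.25% and 5.30% of all genes tested were called. Library totals gave 20 members called lower, 8 other exocytosis genes higher and 7 lower, where 10.2% of all genes were called higher and 30.2% lower. The counts of other genes called lower, which are small, were 1 with no filter, the DESeq2 Wald test, limma-voom, the replicate block and a threshold of 0.01, and 4 at 0.1, and 10 were called higher at 0.01. Leaving out each library gave 5 to 7 members higher and 7 to 10 lower, and 11 to 16 other genes higher and 1 to 3 lower.

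In the main fit the group medians were -0.23 (VAMPs), -0.052 (syntaxins), 0.23 (SNAP proteins), -0.24 (Sytl, Rab and Unc13d) and 0.21 (Nsf and Napa). Under library totals they were -0.39 (VAMPs), -0.21 (syntaxins), 0.065 (SNAP proteins), -0.41 (Sytl, Rab and Unc13d) and 0.049 (Nsf and Napa). That of the syntaxins was -0.076 with iterated TMM. Leaving out a library gave medians of -0.35 to -0.17 for VAMPs, of -0.097 to -0.013 for syntaxins and of -0.26 to -0.016 for Sytl, Rab and Unc13d. Of the genes that were not called, library totals turned Vamp3 (-0.025), Unc13d (-0.12), Rab27a (-0.14) and Rab27b (-0.019), iterated TMM turned Rab27a (-0.0042) and the absence of a filter turned Vamp8 (0.00083). Vamp8 (-0.17, adjusted p 0.0348) and Stxbp2 (-0.19, adjusted p 0.0483) passed the threshold with library totals. Leaving out a library gave log2 fold changes of -0.044 to 0.016 for Vamp8, -0.069 to 0.039 for Stxbp2 and -0.056 to 0.078 for Rab27a. It gave differences of the log2 ratio of -0.22 to 0.13 for Stxbp2 to Stxbp3. The shares of Snap23 and Stx3 rose by 19.7 and 16.9 percentage points with the longest transcript and by 12.7 and 19.8 with the median transcript length.

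Libraries with the same number did not deviate together (correlations -0.0087, -0.016 and -0.022), so they were not taken as pairs. With a replicate block, 5 members were called higher and 9 lower, with Stx11 (log2 fold change 0.32) and Snap29 (0.23) no longer called and Rab3d (-0.24) called, and no other named member changed its call. The cause of these differences was not tested. Members that were left untested, most synaptotagmins among them, had too few counts to pass the filter.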

Other observations

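Syt13 and Sytl4 varied between libraries of a group by more than their groups differed. Syt13 had 6.38, 5.87 and 2.73 CPM in PBS and 1.98, 7.33 and 5.12 CPM in IL-3, and Sytl4 had 8.34, 7.72 and 2.995 CPM in PBS and 3.16, 6.75 and 5.82 CPM in IL-3. PBS replicate 3 and IL-3 replicate 1 were the lowest of their groups for both genes. Neither gene was called (log2 fold change -0.04, SE 0.358, and -0.26, SE 0.316, edgeR adjusted p 0.949 and 0.556).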
